A study of Mus musculus with 2 samples.

Results

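The genes described here are 10 genes of mitochondrial fatty acid use and its transcriptional control, measured by RNA-seq in mouse mesenteric artery, the resistance vessels that supply the intestine. They are Cpt1a, Cpt1b, Cpt2, Acadm, Hadha, Pdk4, Angptl4, Ppara, Ppargc1a and Creb3l3, 10 of 55573 listed genes. The genes were chosen by name with earlier results of these data in view, so every value below is a description. Over both libraries, 9 of the 10 genes had at least 10 reads, and Ppara, with 5 reads, did not.

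Control arteries (5 mM K+) gave 1 library and arteries held in 60 mM K+, which depolarizes the muscle, gave 1, both from wild type C57BL/6 mice aged 10 weeks, with 60 min in solution given for each. Each library pooled tissue from 2 mice, all solutions contained tetrodotoxin against nerve activity, and connective tissue was removed before freezing. The study's methods describe the control as the part of the arteries beyond a tie, taken before the tissue still on the cannula was perfused with 60 mM K+. The vessel segment, the flow and the time in solution may therefore differ between the libraries together with K+, and their effects cannot be told apart. There was 1 library per condition, so the differences below rest on no replicates and carry no p-value.

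Long-chain fatty acids enter mitochondria as carnitine esters, made by carnitine palmitoyltransferase 1 (CPT1) on the outer membrane and undone by CPT2 on the inner membrane. Inside, acyl-CoA dehydrogenases such as MCAD (Acadm) and the trifunctional protein (Hadha with Hadhb) shorten the chain step by step. Pdk4 encodes a kinase that inhibits the pyruvate dehydrogenase complex and so limits the entry of glucose carbon into the same mitochondria, and Angptl4 encodes a secreted inhibitor of lipoprotein lipase. Many of these genes are known targets of the peroxisome proliferator-activated receptors (PPARs), nuclear receptors for fatty acids that bind DNA with a retinoid X receptor (RXR). Ppara encodes one of them, Ppargc1a encodes the coactivator PGC-1α, which is known as a target of CREB, and Creb3l3 encodes CREB-H, a membrane-bound relative of CREB known mainly from liver and intestine.

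The control library held 10480918 reads on genes and the depolarized library 11289598. Log2(fold-change) compares the read count in 60 mM K+ with that in 5 mM K+ on libraries scaled with TMM, the trimmed mean of M-values of edgeR, and its 95% exact (Clopper-Pearson) interval covers counting error only. Scaling by total reads instead lowered every log2(fold-change) by 0.21, and that is the scale of the deposited FPKM values, which are fragments per kilobase of gene in a library of 1000000 fragments. Over all 14829 genes with at least 10 reads the median log2(fold-change) was -0.0047 with TMM and -0.21 with total reads. Smooth muscle genes marked the tissue as labelled, with 187183 and 199779 reads on Acta2 and 154041 and 148394 on Myh11.

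Because the study concerns CREB and the genes concern PPARs, the RefSeq promoters (build GRCm38.p6) of the genes were searched on both strands for the letters of both kinds of site. Sequences were at hand for 8 of the 10 genes, and Angptl4 and Cpt1b had none. Each window ran from 250 bases before to 50 bases after the start. The full cyclic AMP response element, TGACGTCA, was in 0 of the 8 genes and in 1.79% of 32851 promoters. Its core TGACG, which every full element also contains, was in Acadm, Ppara, Ppargc1a and Creb3l3 and in 20.8% of all promoters. The PPAR-RXR element DR1, which is AGGTCA repeated in the same direction 1 base apart, was in 0 of the 8 genes and in 0.0396% of promoters, or in 0.381% with any base allowed in place of T. A single AGGTCA, a search added after the data were seen, was in Cpt1a, Acadm and Creb3l3 and in 16.3% of promoters. The 250 bases before the start are shown for Ppargc1a, the coactivator known as a CREB target, and for Cpt1a and Pdk4, which had the lowest depolarized-to-control ratios among the well-counted genes. Each is read 5′ to 3′ on the gene's strand. Capitals mark CGTCA, the core on the opposite strand, from position -49 in Ppargc1a, and TGACCT, which is AGGTCA on the opposite strand, from position -94 in Cpt1a, while Pdk4 held neither form of AGGTCA.
Ppargc1a, chr5:51567726-51567975, minus strand: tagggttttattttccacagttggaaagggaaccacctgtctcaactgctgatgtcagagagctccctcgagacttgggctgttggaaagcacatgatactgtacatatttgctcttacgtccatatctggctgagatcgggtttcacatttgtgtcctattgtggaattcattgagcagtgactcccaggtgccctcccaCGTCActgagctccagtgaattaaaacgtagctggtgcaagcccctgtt
Cpt1a, chr19:3323051-3323300, plus strand: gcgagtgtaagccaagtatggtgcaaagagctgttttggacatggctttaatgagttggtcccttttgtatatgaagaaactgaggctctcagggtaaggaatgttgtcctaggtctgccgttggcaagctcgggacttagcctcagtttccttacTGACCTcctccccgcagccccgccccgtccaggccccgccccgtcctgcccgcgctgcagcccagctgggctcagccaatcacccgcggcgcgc
Pdk4, chr6:5496279-5496528, minus strand: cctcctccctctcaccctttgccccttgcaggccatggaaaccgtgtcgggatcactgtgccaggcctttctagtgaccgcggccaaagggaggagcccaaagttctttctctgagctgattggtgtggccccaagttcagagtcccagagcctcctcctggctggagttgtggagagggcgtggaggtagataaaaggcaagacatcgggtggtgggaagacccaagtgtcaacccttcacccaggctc

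In the depolarized library Cpt1a, the regulated entry step, and the fuel-switch genes Pdk4 and Angptl4 stood lower than in the control library, while Acadm and Hadha of the oxidation cycle stood closer to it. Pdk4 was 1.69-fold, Cpt1a 1.48-fold and Angptl4 1.39-fold lower, each with an interval that left out 0. With TMM scaling Cpt2 and Acadm were within counting error of equality and Hadha was slightly higher, while with total-count scaling Cpt2 (-0.37, -0.60 to -0.14) and Acadm (-0.26, -0.37 to -0.15) were lower by more than counting error and Hadha (-0.08, -0.18 to 0.01) was within it. Cpt1b and Creb3l3 had a few control reads and 0 depolarized reads. None of the well-counted genes differed by 2-fold.

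**Figure D1:**
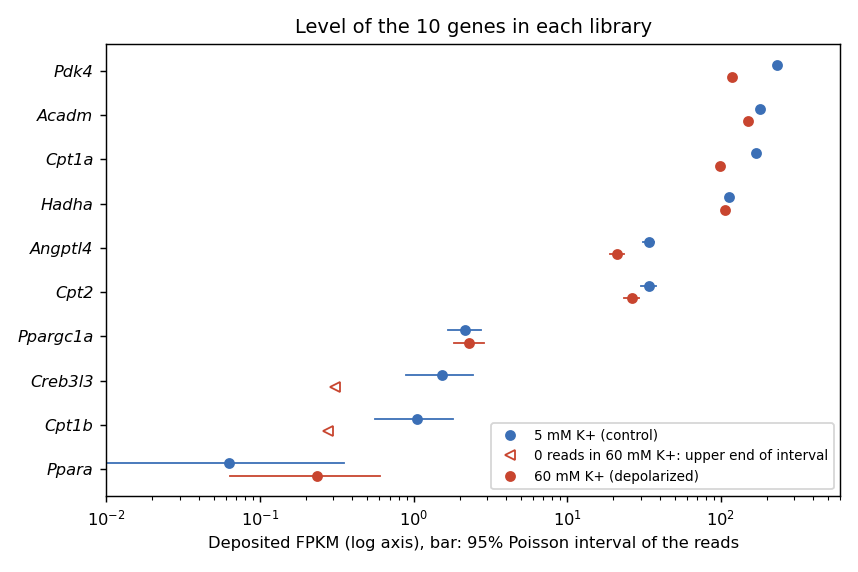
Deposited FPKM (log axis) of the 10 genes in the control (blue) and depolarized (red) library, with bars for the 95% Poisson interval of the reads behind each value and open triangles at the upper end of the interval where there were 0 reads in 60 mM K+. Pdk4 stood at 231 and 119 FPKM, Cpt1a at 169 and 98.8, and Hadha at 113 and 106.

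At the gate of the mitochondrion, Cpt1a (ENSMUSG00000024900, mm9 chr19:3323301-3385732, plus strand), the CPT1 isoform of liver and most tissues, had 2618 reads in 5 mM K+ and 1651 in 60 mM K+, or 169 and 98.8 FPKM. The depolarized library was thus lower by 32.3% after TMM scaling, at a log2(fold-change) of -0.56, with a counting interval from -0.65 to -0.47. Cpt2 (ENSMUSG00000028607, chr4:107576586-107596215, minus strand), the inner membrane partner, had 347 and 290 reads and 33.9 and 26.3 FPKM. Its log2(fold-change) was -0.16 and the interval, -0.39 to 0.07, held 0. The ratio of Cpt1a to Cpt2 reads, which does not depend on how the libraries are scaled, was 7.54 in 5 mM K+ and 5.69 in 60 mM K+. That is a log2 difference of -0.41 (-0.65 to -0.16), so the ratio was lower in 60 mM K+ by more than counting error.

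Cpt1b (ENSMUSG00000078937, chr15:89246836-89256294, minus strand), the muscle isoform of CPT1, had 13 reads in 5 mM K+ and 0 in 60 mM K+, or 1.05 FPKM and 0. Against a floor of 3 counts in the depolarized library it was at least 4.04-fold lower, and the end of its counting interval nearest to 0, where the error of the 13 reads counts as well, was 2.84-fold lower. In the annotation the whole gene lies inside that of Chkb, a choline kinase on the same strand, with 9459 shared bases, so the share of reads given to each is uncertain. Chkb had 49 and 24 reads, a log2(fold-change) of -0.93 (-1.70 to -0.20). Of the summed FPKM of the CPT1 isoforms, Cpt1a held 90.7% in 5 mM K+ and 90.4% in 60 mM K+, and the brain isoform Cpt1c most of the rest. Cpt1c was also lower, with 322 and 225 reads, at -0.42 (-0.67 to -0.17), and its ratio to Cpt1a differed by less than counting error, with a log2 difference of Cpt1a over Cpt1c of -0.15 (-0.41 to 0.12).

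Among the enzymes of β-oxidation, Acadm (ENSMUSG00000062908, chr3:153585321-153607596, minus strand), the medium-chain acyl-CoA dehydrogenase, had 1505 reads in 5 mM K+ and 1355 in 60 mM K+, or 181 and 151 FPKM. Its log2(fold-change) was -0.05 (-0.16 to 0.06). Hadha (ENSMUSG00000025745, chr5:30444841-30481702, minus strand), the α subunit of the trifunctional protein, had 1875 and 1905 reads, 113 and 106 FPKM, and a log2(fold-change) of 0.12 (0.03 to 0.22) that turned to -0.08 with total-count scaling. Hadha shares 78 bases with Fam59b on the other strand, which had 4 and 7 reads. Hadhb, the β subunit of the same complex, had 1247 and 1272 reads, and the ratio of Hadha to Hadhb reads was 1.5 in both libraries, with a log2 difference of -0.01 (-0.15 to 0.14). The pair thus held its ratio to within this interval. Acadl, the long-chain dehydrogenase, was lower than Acadm relative to control, with 1167 and 815 reads, at -0.42 (-0.55 to -0.29). The ratio of Acadm to Acadl reads was 1.29 and 1.66, a log2 difference of 0.37 (0.20 to 0.54).

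Pdk4 (ENSMUSG00000019577, chr6:5433351-5446309, minus strand) had the most reads of the 10 genes, 3612 in 5 mM K+ and 1998 in 60 mM K+, or 231 and 119 FPKM. It was lower by 40.7%, with a log2(fold-change) of -0.75 (-0.83 to -0.67). Among the 6549 genes with at least 500 reads, 0.733% lay at or below Pdk4, 2.02% at or below Cpt1a and 3.79% at or below Angptl4, compared with 22.1% for Cpt2, 34.4% for Acadm and 55.1% for Hadha. The sister kinases were nearer to control, with log2(fold-change) of -0.01 for Pdk1, -0.06 for Pdk2 and 0.18 for Pdk3. With this TMM scaling each interval held 0, and that of Pdk2 ran from -0.24 to 0.11. With total-count scaling Pdk1 was at -0.21, Pdk2 at -0.27 and Pdk3 at -0.03. The ratio of Pdk4 to Pdk2 reads was 6.30 in 5 mM K+ and 3.90 in 60 mM K+, a log2 difference of -0.69 (-0.88 to -0.50). As a share of the summed FPKM of the 4 kinases, Pdk4 held 73.5% and 62.4%, and Pdk2 18.5% and 25.4%.

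Angptl4 (ENSMUSG00000002289, chr17:33910695-33918520, minus strand) had 559 reads in 5 mM K+ and 375 in 60 mM K+, or 34.0 and 21.2 FPKM. Its log2(fold-change) was -0.47 (-0.67 to -0.28). Lpl, which encodes the lipase that Angptl4 inhibits, had 1271 and 916 reads and stood at -0.37 (-0.50 to -0.25), and the ratio of Angptl4 to Lpl reads differed by less than counting error (log2 difference -0.10, -0.33 to 0.13). Other angiopoietin-like genes took a larger share in 60 mM K+. Angptl4 held 27.4% of the family's summed FPKM in 5 mM K+ and 16.8% in 60 mM K+, and Angptl7 held 38.2% and 55.5%.

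The regulators were sparse. Ppargc1a (ENSMUSG00000029167, chr5:51845488-51958964, minus strand) had 69 reads in 5 mM K+ and 79 in 60 mM K+, or 2.17 and 2.30 FPKM, a log2(fold-change) of 0.30 (-0.19 to 0.78), or 0.09 with total-count scaling. Its interval held 0. Of the PGC-1 coactivators, Pprc1 held most of the summed FPKM, 86.2% and 86.6%, and Ppargc1a 6.24% and 7.40%. Ppara (ENSMUSG00000022383, chr15:85565413-85633249, plus strand) had 1 and 4 reads, or 0.063 and 0.235 FPKM, and the interval of its ratio, -1.24 to 7.72 on the log2 scale, leaves its direction unknown at this depth. Ppard, the widely expressed PPAR, held 93.4% and 96.1% of the FPKM of the 3 receptors, and Pparg 6.25% and 3.17%.

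Creb3l3 (ENSMUSG00000035041, chr10:80547069-80561619, minus strand) had 17 reads in 5 mM K+ and 0 in 60 mM K+, or 1.53 FPKM and 0. Against the floor of 3 counts in the depolarized library it was at least 5.28-fold lower, and the nearest end of its counting interval was 3.85-fold lower. It held 1.43% of the FPKM of the CREB3 family in 5 mM K+. Creb3 and Creb3l2 held 46.9% and 43.6%, and in 60 mM K+ 47.0% and 48.3%. Liver and intestine, where CREB-H is best known, were hardly represented in either library: of 9 marker genes of liver and enterocytes, 7 had 0 reads in both (Alb, Ttr, Apoa1, Apoa4, Fabp1, Fabp2 and Sis), and the list summed to 9 and 11 reads.

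**Figure D2:**
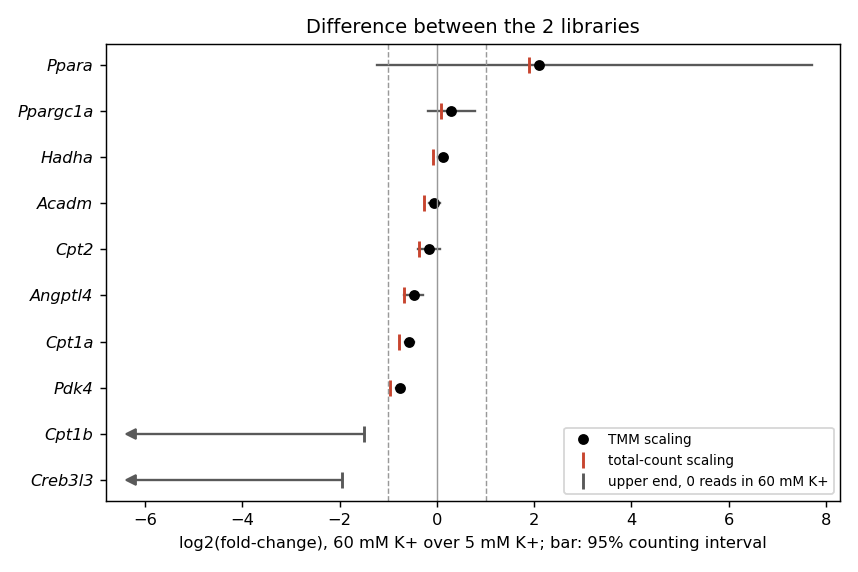
Log2(fold-change) of the 10 genes, 60 mM K+ over 5 mM K+, with TMM scaling (points), total-count scaling (red ticks) and 95% counting intervals (bars); arrows stand for Cpt1b and Creb3l3, which had 0 reads in 60 mM K+ and so have only an upper end. Dashed lines mark 2-fold. Pdk4, Cpt1a and Angptl4 lie between -0.75 and -0.47 and Ppara has the widest interval.

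Counted over the 9 genes with at least 10 reads, 0 were past 2-fold higher, where 5.54% of all such genes were, and 2 were past 2-fold lower, Cpt1b and Creb3l3, where 5.86% were. Those 2 genes had few reads, and of the 2945 genes with 10 to 50 reads, 22.5% were past 2-fold lower. The counting interval lay below 0 for 5 of the 9 genes (Cpt1a, Cpt1b, Pdk4, Angptl4 and Creb3l3) and for 20.3% of all genes. It lay above 0 for 1, Hadha, and for 25.0% of all genes. Since the genes were chosen with this contrast known, nothing is read from these counts. These 9 genes had a median log2(fold-change) of -0.47, and the median of the 7 genes with at least 50 reads was -0.16.

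The order of levels within a library rests on gene length. On deposited FPKM, Pdk4 led in 5 mM K+ with 30.2% of the summed FPKM of the 10 genes, followed by Acadm at 23.6% and Cpt1a at 22.0%, whose counting intervals overlapped, and by Hadha at 14.7%. Angptl4 and Cpt2 came next at 4.43% and 4.42%, with overlapping intervals. In 60 mM K+ Acadm led with 28.8%, ahead of Pdk4 at 22.6%, then Hadha at 20.3% and Cpt1a at 18.8%, whose intervals overlapped, then Cpt2 at 5.01% and Angptl4 at 4.03%, likewise overlapping. Far below them in 5 mM K+ came Ppargc1a at 0.283%, Creb3l3 at 0.20% and Cpt1b at 0.138%, each overlapping its neighbor, and then Ppara, while in 60 mM K+ Ppargc1a stood at 0.438%, above Ppara, and Creb3l3 and Cpt1b were at 0. The lengths behind these FPKM values, obtained by dividing counts by FPKM, ranged from 0.794 kb for Acadm to 3.04 kb for Ppargc1a and were 27.1% to 47.8% of the merged annotated exons. With merged exon lengths instead, a choice made after the data were seen, Pdk4 led in both libraries, at 98.2 and 50.4 reads per kilobase in a library of 1000000 reads. Cpt1a followed Pdk4 in 5 mM K+ at 58.1, with Acadm at 49.0, and in 60 mM K+ Acadm was at 40.9 and Cpt1a at 34.0. The lead of Acadm over Pdk4 in 60 mM K+ thus depended on the length used, and the fold changes of each gene did not.

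**Figure D3:**
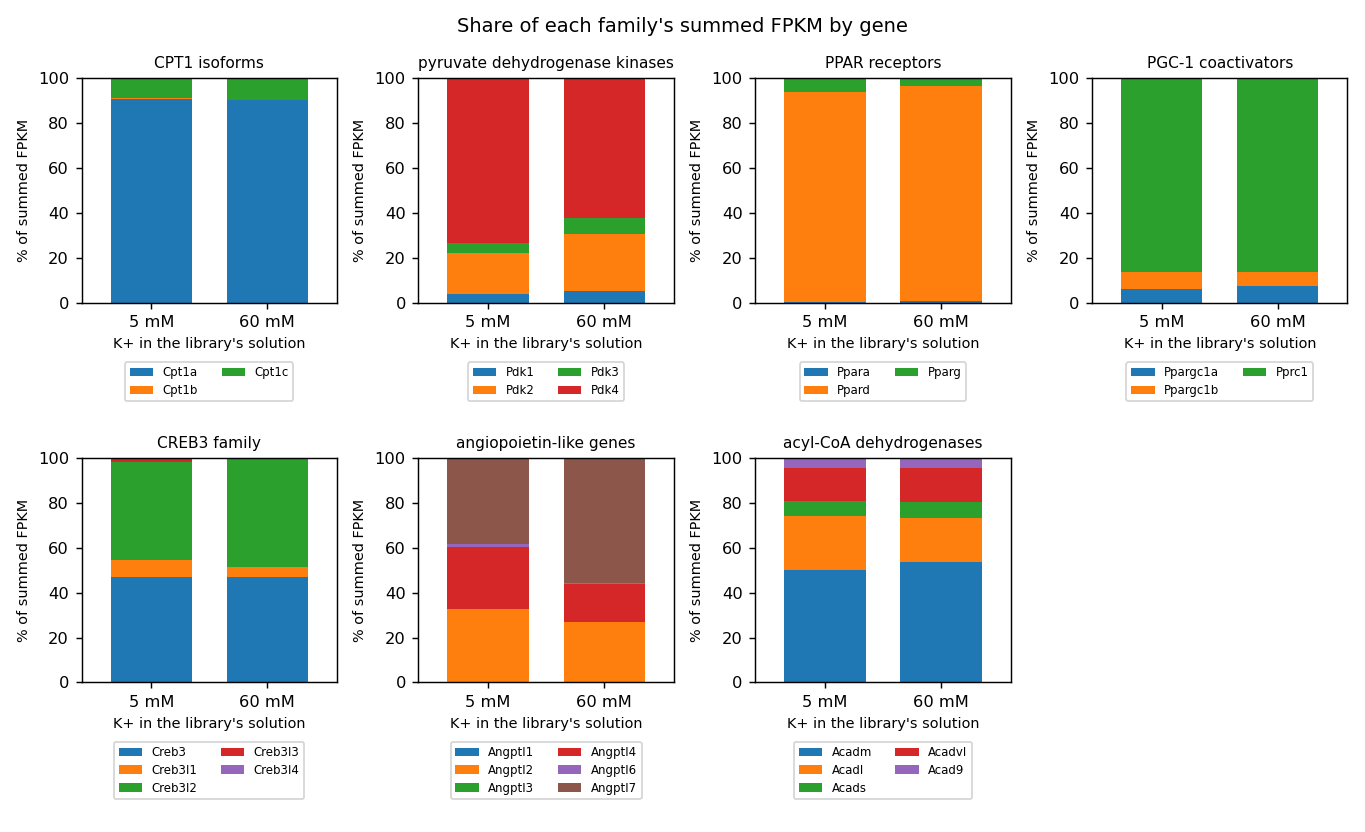
Share of the summed deposited FPKM of each gene family (y axis, percent) held by each gene in the control (5 mM K+) and depolarized (60 mM K+) library. The share of Pdk4 among the kinases was 73.5% and 62.4%, that of Angptl4 among the angiopoietin-like genes 27.4% and 16.8%, and that of Cpt1a among the CPT1 isoforms 90.7% and 90.4%.

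Beyond the 10 genes, the rest of the oxidation machinery showed no common direction with TMM scaling. Of 14 further mitochondrial β-oxidation enzymes, 0 were past 2-fold higher and 1 was past 2-fold lower, Etfb with 13 and 6 reads, an electron transfer flavoprotein subunit named here for its count alone. The interval lay above 0 for 2 and below 0 for 3, and the median was -0.10. With total-count scaling the median was -0.31 and all 14 enzymes had values below 0. Acadl had the lowest value of the well-counted enzymes. Etfdh, which passes the electrons on to ubiquinone, was at -0.26 (-0.46 to -0.05) and Decr1, which handles unsaturated chains, at -0.20 (-0.38 to -0.03). Hadhb, with the most reads, was at 0.13 and turned to -0.08 with total-count scaling.

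In the carnitine shuttle and fatty acid activation, 8 of 9 genes had at least 10 reads, 0 were past 2-fold either way, and the median was 0.08, or -0.13 with total-count scaling. Cpt1c was the only gene of this list with an interval below 0. Acsl3, an acyl-CoA synthetase, had 86 and 111 reads (0.47, 0.05 to 0.89), and Slc22a5, the plasma membrane carnitine transporter, 259 and 306 reads (0.34, 0.10 to 0.59). With total-count scaling they were at 0.26 and 0.13. Acsl1, the synthetase with the most reads, was at -0.14 (-0.31 to 0.02).

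Peroxisomes shorten very long chains, and 11 of 13 peroxisomal genes had at least 10 reads, with 0 past 2-fold either way and a median of -0.11. With total-count scaling 2 were past 2-fold lower, Pex11a at -1.19 and Abcd2 at -1.004, and Pex11a also with upper-quartile scaling, at -1.02. The interval was below 0 for Pex11a, a PPAR-responsive factor of peroxisome division (76 and 36 reads, -0.98, -1.59 to -0.39), Abcd2, a fatty acid transporter (54 and 29 reads, -0.80, -1.50 to -0.12), and Acox3, an oxidase of branched chains (322 and 179 reads, -0.75, -1.02 to -0.48). Scp2, a sterol carrier protein and the gene of this list with the most reads, had 1832 and 2226 reads and stood higher, at 0.38 (0.29 to 0.47), or 0.17 with total-count scaling.

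Of 20 further PPAR target genes, 15 had at least 10 reads, 0 were past 2-fold either way with TMM scaling, and the interval was below 0 for 7 and above 0 for 1. The median was -0.14. Gpd1, a cytosolic glycerol phosphate dehydrogenase, had 62 and 29 reads (-0.99, -1.68 to -0.34) and was past 2-fold lower with the other scalings, at -1.20 with total counts, -1.04 with the upper quartile and -1.01 with the median of ratios. Cd36, a fatty acid transporter, had 195 and 115 reads (-0.66, -1.01 to -0.32). Acot1, a thioesterase, had 26 and 36 reads (0.57, -0.20 to 1.36), and Plin4, a lipid droplet coat protein with the most reads of the list, 7494 and 6649 reads (-0.07, -0.12 to -0.02). Cyp4a10 and Cyp4a14, PPARα targets of liver, had 0 reads in both libraries.

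Among the receptors and cofactors, Ppard and Lpin1 were past 2-fold higher. Ppard had 304 reads in 5 mM K+ and 572 in 60 mM K+, a log2(fold-change) of 1.01 (0.81 to 1.22) that was 0.80, under 2-fold, with total-count scaling. It was the only one of 6 measured receptors past 2-fold. Esrra, the estrogen-related receptor α, was at 0.21 (0.01 to 0.41), or 0.004 with total-count scaling. The RXR genes Rxra and Rxrg were at 0.07 (-0.14 with total-count scaling) and -0.20 with intervals that held 0. Of the coactivators and corepressors, Lpin1, lipin 1, a phosphatidate phosphatase that also coactivates PPARα with PGC-1α, had 1237 and 2501 reads (1.12, 1.02 to 1.22). With total-count scaling it was at 0.91, also under 2-fold. Nrip1, a corepressor of metabolic genes, was at 0.47 (0.28 to 0.66), and over the list of 11 genes the interval lay above 0 for 4 and below 0 for 5, with a median of -0.16.

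On the glucose side, the pyruvate dehydrogenase list of 13 genes had 0 past 2-fold, a median of 0.11 (-0.10 with total-count scaling), and intervals above 0 for 5 genes and below 0 for 2. Mpc1, a subunit of the mitochondrial pyruvate carrier, had 98 and 141 reads (0.63, 0.24 to 1.01). Lower values were seen for Pdpr, a regulatory subunit of the phosphatase that opposes the kinases (230 and 121 reads, -0.83, -1.15 to -0.50, or -1.03 and past 2-fold with total-count scaling), and for Pdp2, a catalytic phosphatase subunit (-0.51, -0.84 to -0.20). The other catalytic subunit, Pdp1, was higher, with 154 and 204 reads (0.51, 0.20 to 0.82, or 0.30 with total-count scaling). Pdha1, the subunit on which the kinases act, was at -0.08 (-0.21 to 0.05). The hypoxia target list stood apart from the others in its values: 8 of 10 genes had an interval above 0, 2 were past 2-fold higher, and the median was 0.59, or 0.38 with total-count scaling. They were Slc2a1, the glucose transporter GLUT1, with 289 and 1047 reads (1.96, 1.77 to 2.15), and Egln3, an oxygen-sensing prolyl hydroxylase, with 104 and 280 reads (1.53, 1.20 to 1.87). Ldha, lactate dehydrogenase A, was at 0.87 (0.79 to 0.94).

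The remaining lists held 0 genes past 2-fold. Among angiopoietin-like genes and lipase partners, 8 of 9 were measured, 2 had an interval above 0 and 0 below. Those were Angptl7, with 1070 and 1702 reads (0.77, 0.66 to 0.88), and Pnpla2, the adipose triglyceride lipase (0.29, 0.21 to 0.38). With total-count scaling they were at 0.56 and 0.08. Gpihbp1, which anchors lipoprotein lipase on endothelium, was at -0.27 (-0.92 to 0.38). In the CREB3 family Creb3l1 was at -0.69 (-1.01 to -0.37), with 226 and 131 reads. Creb3l2 was at 0.25 (0.16 to 0.34) and Creb3 at 0.11, or 0.04 and -0.10 with total-count scaling. Of 9 genes that set malonyl-CoA, the inhibitor of CPT1, or encode AMP kinase subunits, 4 had an interval below 0 and 1 above. The catalytic subunits Prkaa1 and Prkaa2 were at -0.42 (-0.62 to -0.23) and -0.34 (-0.53 to -0.15), and the regulatory subunits Prkag1 and Prkag2 at 0.30 (-0.10 to 0.69) and 0.18 (0.08 to 0.28), the latter -0.03 with total-count scaling. Of 10 measured glucocorticoid and FOXO target genes, a set to which Pdk4 is known to belong, 6 had an interval below 0 and 4 above. Foxo3 was at -0.65 (-0.77 to -0.52), Sesn1, a sestrin, at -0.56 (-0.73 to -0.40), Irs2, an insulin receptor substrate, at 0.53 (0.46 to 0.59), and Klf9, with the most reads, at -0.09 (-0.15 to -0.03).

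**Figure D4:**
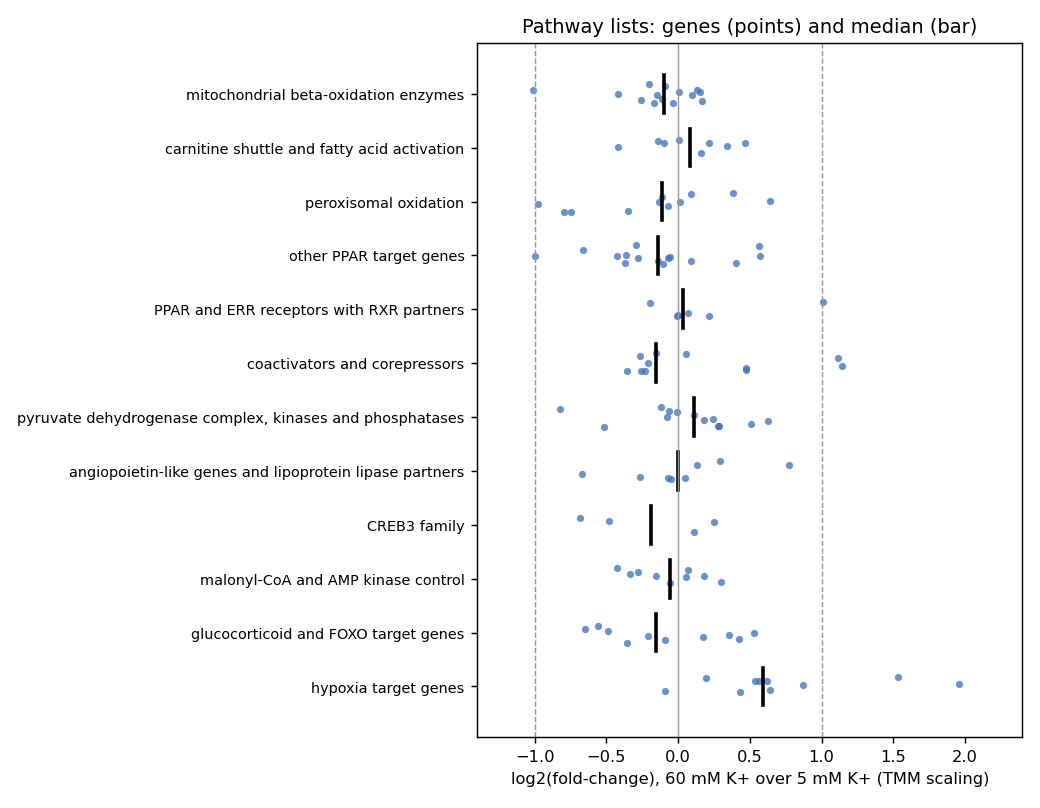
Log2(fold-change), 60 mM K+ over 5 mM K+ with TMM scaling, of every gene with at least 10 reads in the 12 pathway lists (points; the 10 genes described here are not among them), with the list median as a bar and dashed lines at 2-fold. The hypoxia list has its median at 0.59, and the medians of the other lists lie between -0.19 and 0.11.

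Markers of other cell types in the tissue differed between the libraries as well. In bulk tissue, fewer cells of a type and less RNA per cell cannot be told apart. Of 6 white adipocyte markers, 5 had an interval below 0 and 1, Lep with 1 and 9 reads, above it, and their summed level was 89.6 CPM (reads in a library of 1000000) in 5 mM K+ and 42.3 in 60 mM K+, a log2 ratio of -1.08. Past 2-fold lower were Plin1, with 101 and 18 reads (-2.39), Cfd, with the most reads, 607 and 270 (-1.07), and Adipoq, with 97 and 44 (-1.04), and with total-count scaling 5 of the 6 were past 2-fold lower. Fat cells express Pdk4, Angptl4, Cpt1a, Lpl, Cd36 and Gpd1, and the part of the adipocyte difference in the values of those genes was not tested. Fabp4, also a PPAR target and a gene of fat cells and capillary endothelium, had 1060 and 951 reads (-0.06, -0.18 to 0.07). The brown adipocyte list summed to 108 and 109 CPM, with Ucp1 at 2 and 5 reads. Prdm16, its marker with the most reads, held 850 of its 1221 control reads and was at -0.13 (-0.27 to 0.02). Of its 4 markers with at least 10 reads, 0 had an interval below 0 and 1 above. That was Cidea, with 65 and 94 reads (0.63, 0.16 to 1.11, or 0.42 with total-count scaling).

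Endothelial markers summed to 3140 and 4265 CPM, a log2 ratio of 0.44, with Pecam1, the marker with the most reads, at 0.50 (0.47 to 0.53). Of the 6 endothelial markers, 5 had an interval above 0, and Kdr, with 168 and 73 reads, was past 2-fold lower, at -1.10 (-1.52 to -0.70). Smooth muscle markers summed to 33715 and 36738 (0.12), with Acta2 at 0.20, or -0.01 with total-count scaling. Of the 6 smooth muscle markers, 4 had an interval above 0 and 2 below. The lower ones were Smtn at -0.14 (-0.18 to -0.10) and Lmod1 at -0.16 (-0.20 to -0.12). Fibroblast markers were at 5909 and 5384 (-0.13), with Col1a2 at -0.12, and macrophage markers at 31.6 and 21.9 (-0.53), with Lyz2 at -0.78 (-1.17 to -0.39). Striated muscle markers summed to 52.5 and 55.9 (0.09), with Myh2 and Myh4 at 0 reads in both libraries. Acta1 held 439 of their 592 control reads and was at 0.01 (-0.19 to 0.21, or -0.20 with total-count scaling). Of the 6 striated muscle markers with at least 10 reads, 0 had an interval below 0 and 1 above. That was Ckm, with 21 and 36 reads (0.88, 0.06 to 1.73, or 0.67 with total-count scaling). Pancreatic acinar markers had 134 reads in 5 mM K+ and 430 in 60 mM K+, led by Cpb1 with 98 and 138 reads, and 5 of 6 were past 2-fold higher. Lymphocyte markers had 7 and 8 reads. With total-count scaling the log2 ratio of each summed list is lower by 0.21, which turns those of smooth muscle, striated muscle and brown adipocyte markers negative. The part of these cell types in the values of the 10 genes was not tested.

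**Figure D5:**
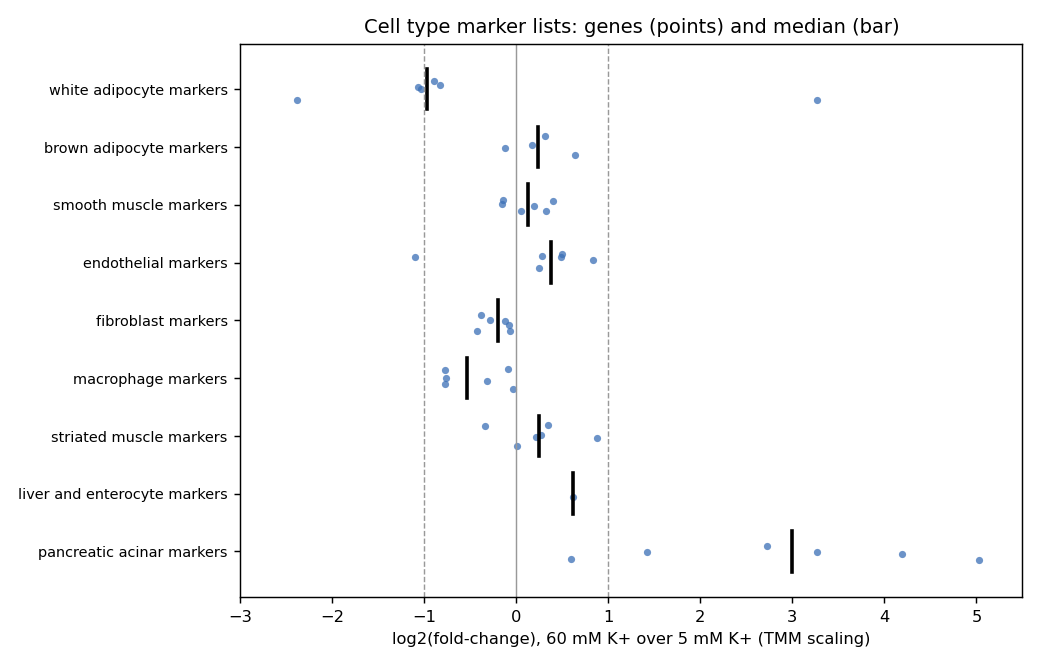
Log2(fold-change), 60 mM K+ over 5 mM K+ with TMM scaling, of cell type markers with at least 10 reads (points), with the list median as a bar and dashed lines at 2-fold. White adipocyte markers lie below 0 except Lep, with 1 and 9 reads, and pancreatic acinar markers lie above 0.

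With 2 libraries, likeness between genes is likeness in 1 ratio. Among 641 other genes whose total reads were within 1.5 times that of Pdk4, the nearest in log2(fold-change) were Nr1d2, which encodes the clock repressor REV-ERBβ, with 2621 and 1443 reads (-0.76), Fat1, an atypical cadherin (-0.72), and Rgs4, a regulator of G protein signaling (-0.67). Among 1696 such genes for Ppargc1a, the nearest were Pip5k1b, Prkag1 and Rin1, each at 0.30.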

How the data were processed

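Poly(A)-selected RNA of mouse mesenteric artery was sequenced in 1 control and 1 depolarized library. Per the methods, the authors used TopHat2 and the mm9 genome, and the submitters' processing notes name TopHat2 2.0.12, HTSeq 0.6.1, edgeR 3.0.8 and the builds mm8 and mm9. The authors deposited raw read counts per gene and FPKM values, which were scaled by total counts. Neither the counting annotation nor its use of strand is stated in those sources, and 32601 of the 55573 listed genes are in GENCODE vM1, from which mm9 positions and exon lengths were taken.

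From the counts, edgeR 4.0.16 (R 4.3.3) gave TMM factors of 1.07 and 0.930, a count of 0 was set to 0.5 reads, and genes with a sum of at least 10 reads over both libraries were kept. Without replicates no model across genes could be fitted. Intervals are 95% Clopper-Pearson intervals (ratios) or exact Poisson intervals (levels), and intervals and floors cover counting error only. A floor of 3 counts equals 0.266 CPM in the control and 0.286 CPM in the depolarized library. CPM is reads in a library of 1000000 after TMM scaling. The ratio script was tested on simulated data.

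The 10 genes and the 12 pathway and 10 marker lists were chosen with earlier results of these data known. Named were all 10 genes, the 3 genes with the largest absolute log2(fold-change) and the gene with the most reads of each pathway list among genes with at least 50 reads, the marker with the most reads and markers at 0, and the 3 genes nearest to Pdk4 and Ppargc1a within 1.5 times their reads. Some genes that this rule names are not reported here. Genes of the families, the read ratios, the adipocyte and endothelial markers past 2-fold, and Pdp1, Cidea, Ckm, Smtn and Lmod1 were added after their values were seen. Alternatives were scaling by total count, by upper quartile and by DESeq2 1.42.0 size factors, other minimum counts and fold thresholds, FPKM with pseudocounts of 0.1 and 1, the random-sampling test of DEGSeq recomputed on the reads, and the exact test of edgeR under an assumed coefficient of variation.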

Additional observations from a re-analysis of the deposited data

How the results depend on the processing

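The counts of the 10 genes past 2-fold, 0 higher and 2 lower, were the same with total-count, upper-quartile or median-of-ratios scaling. Without a filter on low counts 1 of the 10 genes, Ppara with 1 and 4 reads, was past 2-fold higher instead of 0. The 2 genes past 2-fold lower, Cpt1b and Creb3l3, became 0 with at least 50 reads, 0 with genes at 0 in 1 library left out (an alternative chosen after seeing the data), 1 with edgeR's exact test and an assumed coefficient of variation of 0.1, and 0 with 0.2 or 0.4. Over the whole series the exact test called 58 genes lower with 0.1, 8 with 0.2 and 0 with 0.4. Its 0 with 0.4 therefore says nothing about these genes in particular. With a fold threshold of 1.5, 3 genes were past it lower, Cpt1b, Creb3l3 and Pdk4. The median of -0.47 over the 9 genes with at least 10 reads was -0.32 over all 10 genes without that filter, -0.68 with total-count scaling, -0.68 on FPKM plus 0.1, and -0.16 with a minimum of 50 reads or with genes at 0 in 1 library left out. The values of -0.68 differ by the scaling shift of -0.21, and those of -0.16 by the loss of 2 genes. For single genes, 196 values stayed within their counting interval and 114 did not, the latter mostly with total-count scaling or FPKM; 24 medians of lists moved as well, and 0 values past 2-fold changed sign. No paired analysis was possible because only 1 library was made of either kind. At this depth, the directions of Ppara and Ppargc1a could not be resolved.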
